A study of Mus musculus with 7 samples.

Results

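The cytosolic ribosomal protein genes were measured in MIN6, an insulin-secreting cell line derived from mouse pancreatic beta cells. Members were the genes whose RefSeq symbol reads Rpl or Rps and a number, with an optional a, l or x, which leaves out the S6 kinases and most pseudogenes. They numbered 78 genes, 31 of the small subunit (Rps) and 47 of the large subunit (Rpl), on 135 of 56605 non-control probes. The rule used names only and no measured value. The vehicle group held 3 arrays of MIN6 cells kept for 3 days with phosphate-buffered saline, and the MPE group held 4 arrays of MIN6 cells kept for 3 days with a polysaccharide extract of Maidong. Neither the concentration of the extract on the arrays nor the origin of the replicates (separate cultures or not) is stated in the labels. The p-values thus rest on a spread between samples that may be technical. MIN6 is 1 tumour-derived line and the labels name no other cells.

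Cytosolic ribosomes are built from ribosomal RNA and a large set of small proteins, most of them present in a single copy per ribosome, and the genes of these proteins are among the most strongly transcribed in growing cells. Their mRNAs typically begin with a run of pyrimidines, the terminal oligopyrimidine (TOP) tract, through which mTOR and LARP1 set how much of the mRNA is translated without necessarily changing its amount. A beta cell that secretes insulin depends on this machinery for hormone synthesis. Many ribosomal protein genes have processed pseudogenes of near-identical sequence, and probe sequences were not used here, so that signal from such copies was not tested.

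All 7 arrays lay on 1 slide, vehicle in its first row and MPE in its second row, so treatment cannot be told apart from the row of the slide. The number of probes well above background was 27901 to 30111 per array. Of 13 beta-cell markers, 13 were well above background on all 7 arrays. Among markers of other islet cells Gcg, Sst, Ppy and Ghrl were too. Of 7 acinar and duct markers only Cel was above background on all 7 arrays, and of 6 stromal, endothelial and immune markers only Itgam was. Cel stood at -3.86 ± 0.23 in vehicle (SD, n = 3) and -2.23 ± 1.11 in MPE (SD, n = 4), and Itgam at 4.27 ± 0.17 and 3.92 ± 0.079, log2 levels relative to the 75th percentile of the array. Their part in the results was not tested.

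Promoter sequence was taken from the RefSeq windows of the assembly GRCm38.p6, which reach from 250 bases before to 50 bases after the start of a gene, and 58 of the 78 genes had one. The windows show 3 pairs of paralogs whose measured signals are described further on, each pair made of a widely used gene and its relative. The stretch from 80 bases before to 20 bases after the start is printed on the gene's strand. Rps27l has 2 windows, of which the first is printed. Capitals mark matches to the motifs searched, which were CTTTCC and CTCTTT (TOP-like runs, gene strand), CCGGAAG (ETS type), CCATNTT (YY1 type), GGGCGG (GC box) and TATAAA, the last 4 on either strand.
Rpl10 (chrX:74270736-74270835, plus strand): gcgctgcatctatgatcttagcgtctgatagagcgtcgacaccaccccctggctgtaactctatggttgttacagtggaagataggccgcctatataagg
Rpl10l (chr12:66284382-66284481, minus strand): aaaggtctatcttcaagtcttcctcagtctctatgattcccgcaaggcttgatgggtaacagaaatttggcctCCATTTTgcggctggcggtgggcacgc
Rpl39 (chrX:37085203-37085302, minus strand): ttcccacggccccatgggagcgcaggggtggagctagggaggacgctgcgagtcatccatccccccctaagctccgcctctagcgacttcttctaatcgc
Rpl39l (chr16:10170148-10170247, plus strand): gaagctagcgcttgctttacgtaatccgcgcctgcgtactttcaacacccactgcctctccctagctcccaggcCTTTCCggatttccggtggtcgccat
Rps27 (chr3:90213629-90213728, minus strand): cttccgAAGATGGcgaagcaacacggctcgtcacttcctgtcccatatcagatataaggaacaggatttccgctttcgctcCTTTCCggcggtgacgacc
Rps27l (chr9:66946006-66946105, plus strand): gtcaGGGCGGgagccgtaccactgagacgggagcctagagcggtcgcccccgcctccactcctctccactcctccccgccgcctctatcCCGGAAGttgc

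CTTTCC begins at the second transcribed base of Rps27 in the RefSeq model and 6 bases before the start of Rpl39l. Over the whole windows, 34 of the 58 genes (58.6%) held CTTTCC or CTCTTT on the gene strand, against 25.8% of the 27025 genes with a window. CCGGAAG stood on either strand in 39.7% of the ribosomal protein genes and in 9.93% of all genes. CCATNTT stood in 31.0% and 18.2%, and GGGCGG in 56.9% and 38.2%. TATAAA stood in 10.3% of the ribosomal protein genes and in 15.7% of all genes. A match describes letters in a window and is no evidence of a bound factor. Most of a window lies before the start, so the share with CTTTCC or CTCTTT is not a share with a TOP tract.

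Of the 78 genes, 74 passed the filter on dim probes, which asks that a probe be well above background on at least 3 arrays. Their brightest probes were among the brightest on the array. Of the 74, 73 lay in the brightest 10% of the 22060 genes tested, and the exception was Rpl37. The median level over the 74 genes was 7.49 in vehicle and 7.43 in MPE. Levels are log2 intensities of each gene's brightest probe relative to the 75th percentile of all probes on the array, and their order depends on how well each probe hybridizes, so they do not rank transcript amounts.

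**Figure D1:**
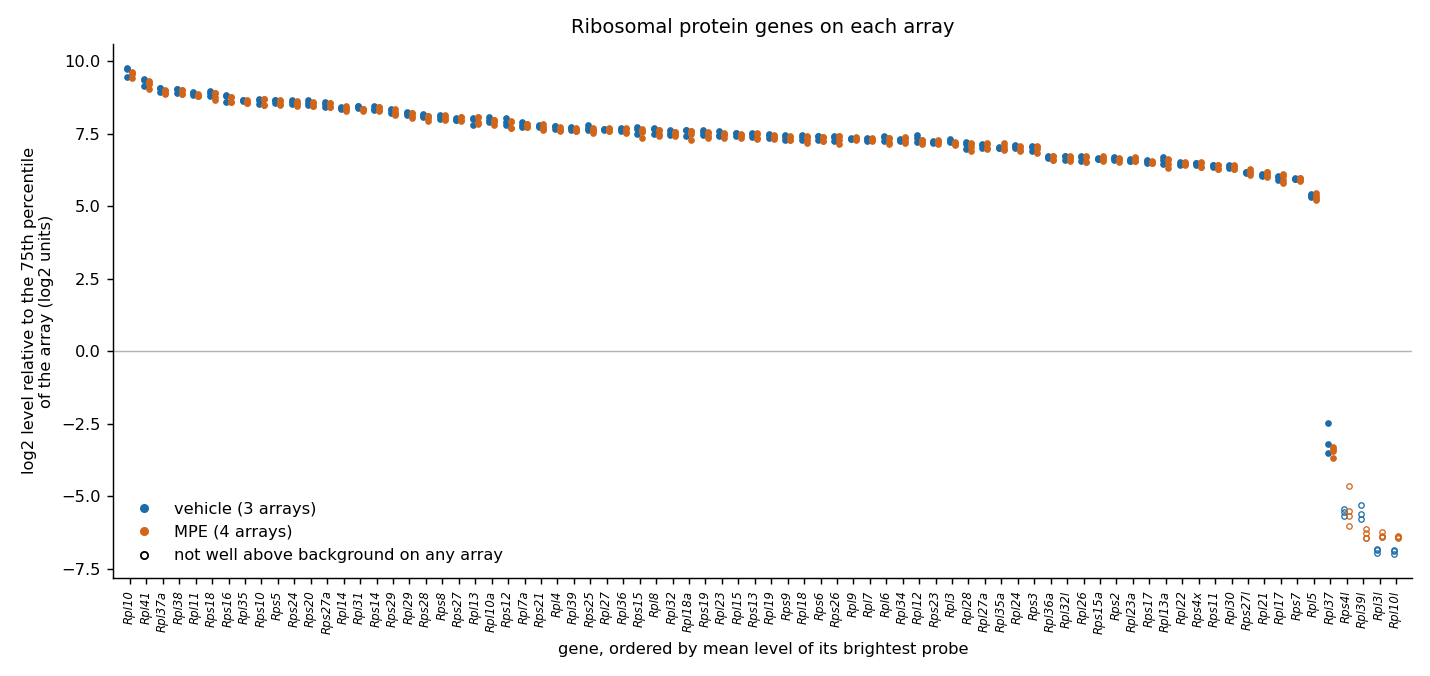
Log2 level relative to the array's 75th percentile (y axis) of the brightest probe of each ribosomal protein gene (x axis, ordered by mean level), with vehicle arrays in blue and MPE arrays in orange. Rpl10 to Rpl5 run from 9.65 to 5.36 in vehicle, Rpl37 stands apart near -3.06, and the open circles are the 4 genes below background.

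The 4 brightest signals came from Rpl10, Rpl41, Rpl37a and Rpl38. Rpl10, which joins the large subunit late and lies near the peptidyl transferase centre, stood at 9.75, 9.73 and 9.45 on the vehicle arrays and at 9.63, 9.58, 9.43 and 9.55 on the MPE arrays. Rpl41, whose protein is a very short basic peptide, stood at 9.39, 9.36 and 9.13 in vehicle and at 9.31, 9.23, 9.03 and 9.21 with MPE. In both genes vehicle replicate 3 was the lowest of its group, and the groups overlapped. Rpl38, whose loss in mice disturbs skeletal patterning, stood at 8.98 ± 0.087 (SD, n = 3) in vehicle and 8.92 ± 0.080 (SD, n = 4) with MPE. Rpl37a stood at 9.02 ± 0.082 and 8.94 ± 0.071.

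Apart from Rpl37, the dimmest of the genes tested were Rpl5, Rps7 and Rpl17. Rpl5, which with Rpl11 and the 5S rRNA forms the particle that binds Mdm2, stood at 5.42, 5.35 and 5.31 in vehicle and at 5.36, 5.44, 5.21 and 5.29 with MPE. Rpl11 itself stood at 8.88 ± 0.054 and 8.82 ± 0.038. The groups overlapped in both genes. Rps7 stood at 5.95 ± 0.022 and 5.93 ± 0.048, and Rpl17 at 5.98 ± 0.080 and 5.96 ± 0.14.

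Rpl37, a zinc-binding protein of the large subunit, was the outlying gene. Its 1 probe read -3.18, -2.48 and -3.52 on the vehicle arrays and -3.38, -3.30, -3.44 and -3.69 on the MPE arrays, well above background on all 7. Vehicle replicate 2 was the highest, and the groups overlapped. Its MPE minus vehicle difference of -0.39 (SE 0.24, 95% interval -0.96 to 0.18) was the largest in size and the least precise of the 74. It was -0.10 without vehicle replicate 2 and -0.62 without vehicle replicate 3. Whether the probe matches the main transcript of Rpl37 was not tested.

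No ribosomal protein gene differed between MPE and vehicle beyond the threshold (0 of 74 at an adjusted p under 0.05 by limma, and 0 of 74 at an unadjusted p under 0.05). Over all 22060 genes 1 gene was called, or 0.00453%. At an unadjusted p under 0.05, 0.757% of all genes were higher and 3.35% were lower. Of the 74 genes, 8 had a higher and 66 (89.2%) a lower MPE mean under the main scaling, with a median difference of -0.044, and under quantile normalization and in the authors' table that median turned to 0.012. Among the 2133 other genes of the brightest 10%, 73.7% were lower, with a median of -0.030. Among all genes 57.7% were lower, with a median of -0.016. Differences for the 73 genes other than Rpl37 ran from -0.11 (Rps12, a small-subunit protein) to 0.041 (Rpl21, a large-subunit protein).

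The precision of these bright probes was high. The median SE of the difference was 0.066 over the 74 genes and 0.091 over all genes. The 95% interval lay within 1.5-fold of no difference for 73 of the 74 genes and within 1.2-fold for 64, against 80.7% and 45.1% of all genes. A p that misses the threshold does not show equal levels, and the intervals give the sizes left possible under the main scaling only. They do not cover the choice of scaling. Scaled to control probes, as described further on, the members' median was 0.26.

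**Figure D2:**
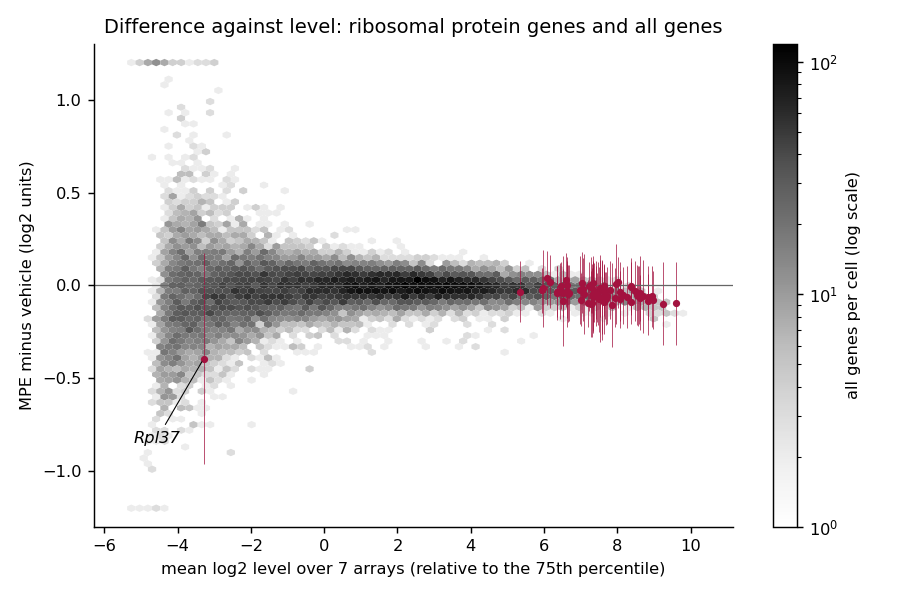
MPE minus vehicle difference (y axis, log2 units, drawn up to 1.2 either way) against mean log2 level (x axis), with all 22060 genes as grey cells and the 74 ribosomal protein genes as red points with 95% intervals. The points lie at the bright end between -0.11 and 0.041, except Rpl37 at -0.39.

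The genes with the smallest unadjusted p were Rpl3, Rpl31 and Rpl37 among those lower, each with an adjusted p of 1.00 by limma. Rpl3, which lies next to the peptidyl transferase centre, stood at 7.31, 7.26 and 7.22 in vehicle and at 7.19, 7.21, 7.10 and 7.15 with MPE. All 4 MPE values lay below the 3 vehicle values, and the mean was 0.935 times vehicle (95% interval 0.857 to 1.02). Rpl31, at the rim of the exit tunnel, stood at 8.44, 8.46 and 8.37 in vehicle and at 8.35, 8.34, 8.28 and 8.36 with MPE, 0.941 times vehicle (0.867 to 1.02). These 2 of 74 genes (2.70%) were the ones whose groups did not overlap with MPE lower. Among all genes 3.36% did so. The other probe of Rpl31, spotted 10 times, differed by -0.029 (SE 0.052), and its groups overlapped. Another probe of Rpl3 read higher with MPE, at 3.57 ± 0.059 (SD, n = 4) against 3.45 ± 0.10 (SD, n = 3), so that the probes of Rpl3 spanned 0.21 in their differences, the widest span of the 41 genes with several tested probes. With each of the 129 tested member probes fitted on its own, 1 probe of Rpl9 was higher (0.17) and 1 of Rpl36a lower (-0.13) at an unadjusted limma p under 0.05, each with an adjusted p of 1.00. Among all 28874 probes tested 0.81% were higher and 3.34% lower at that p.

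Rpl12, a protein of the stalk base, stood at 7.33 ± 0.12 in vehicle and 7.23 ± 0.071 with MPE, a difference of -0.10 (SE 0.074). Rps25, used by several viral internal ribosome entry sites, stood at 7.70 ± 0.091 and 7.61 ± 0.086, a difference of -0.091 (SE 0.072). The 95% intervals of both differences included 0, and the groups overlapped. Another probe of Rpl12 differed by 0.0050 (SE 0.055). On the higher side, Rpl21 stood at 6.06 ± 0.034 and 6.11 ± 0.081, 1.03 times vehicle (95% interval 0.931 to 1.14). Rpl23a, at the exit of the peptide tunnel where nascent chains meet their targeting factors, differed by 0.030 (SE 0.062), Rps27l by 0.019 (SE 0.060), Rps27 by 0.016 (SE 0.057) and Rpl9 by 0.015 (SE 0.049), and all 4 stood below 0 under median scaling.

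By place in the ribosome, no group held a gene that passed the test, adjusted or not. Over all 74 genes, 66 (89.2%) were lower under the main scaling and 25 under quantile normalization. The counts that follow are under the main scaling. Of the 30 small-subunit genes tested, 2 were higher and 28 lower (median -0.042). Of the 44 large-subunit genes, 6 were higher and 38 lower (median -0.046). The 8 genes for proteins of the mRNA channel and decoding site were all lower, with a median of -0.040. Among them was Rps3, which lines the mRNA entry, at -0.025 (SE 0.077). The 3 genes for proteins around the peptidyl transferase centre were lower, with a median of -0.097. Of 9 genes for exit-tunnel proteins 8 were lower. Of 22 genes mutated in Diamond-Blackfan anaemia, an inherited failure of red-cell production, 19 were lower. Rps19, the gene most often mutated in that disease, stood at 7.54 ± 0.092 and 7.46 ± 0.094.

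Single members with known regulatory roles also had 95% intervals that included 0. Rps6, the substrate of the S6 kinases downstream of mTOR, stood at 7.40, 7.41 and 7.28 in vehicle and at 7.37, 7.40, 7.26 and 7.25 with MPE, a difference of -0.045 (SE 0.065). Rpl13a, which in inflammation can silence translation when released from the ribosome, stood at 6.58 ± 0.13 and 6.49 ± 0.15. Rps27a, made as a fusion with ubiquitin, stood at 8.51 ± 0.091 and 8.48 ± 0.075 on its bright probe. Another Rps27a probe was well above background on 1 of 7 arrays and was not tested, as was 1 probe of Rps15a, above background on 0 arrays.

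Paralogs differed in whether they were measurable. Rpl3l, the striated-muscle form of Rpl3, Rpl10l and Rpl39l, the testis forms of Rpl10 and Rpl39, and Rps4l, annotated as a transcribed pseudogene, were not well above background on any of the 7 arrays, and no difference is given for them. Their counterparts Rpl3, Rpl10, Rpl39 and Rps4x were well above background on all 7 with all their probes. Rpl39 stood at 7.68 ± 0.043 in vehicle and 7.63 ± 0.055 with MPE, and Rps4x, encoded on the X chromosome, at 6.46 ± 0.046 and 6.43 ± 0.085. Rpl32l, another member with an l in its symbol, was well above background on all 7 arrays, at 6.69 ± 0.075 and 6.65 ± 0.075. Signal from Rpl32 on its probe was not tested.

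**Figure D3:**
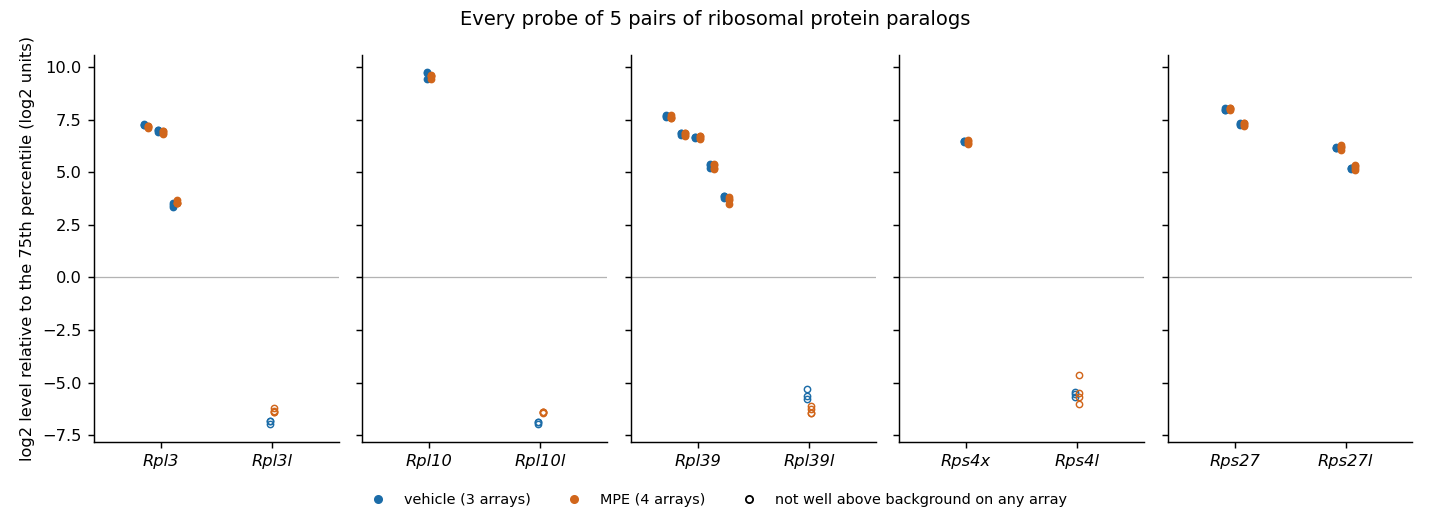
Log2 level relative to the array's 75th percentile (y axis) of each probe of 5 pairs of paralogs (x axis), 1 point per array, vehicle in blue and MPE in orange, with open circles for probes not well above background. Rpl3l, Rpl10l, Rpl39l and Rps4l sit at the bottom and Rps27l is measured by both its probes, and heights of different probes do not compare transcript amounts.

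Rps27l, a p53 target and close relative of Rps27, was well above background on all 7 arrays with both of its probes. Its brighter probe read 6.18, 6.16 and 6.14 in vehicle and 6.19, 6.27, 6.18 and 6.07 with MPE, and the groups overlapped. Rps27 read 8.05, 7.97 and 7.97 in vehicle and 8.07, 8.07, 7.99 and 7.94 with MPE. The other pairs had both partners measured as well. Rpl22 stood at 6.46 ± 0.046 and 6.46 ± 0.047, and its relative Rpl22l1, outside the rule, differed by 0.041 (SE 0.061). Rpl7 differed by -0.017 (SE 0.056) and Rpl7l1 by 0.088 (SE 0.087). Rpl36a differed by -0.042 (SE 0.064) and Rpl36al by -0.057 (SE 0.052).

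Under the main scaling the ribosomal protein genes lay high or low together on the arrays of a group. On vehicle replicates 1, 2 and 3, the numbers of the 74 genes above their vehicle mean were 67, 58 and 3. On the 4 MPE arrays 70, 73, 2 and 7 genes lay above their MPE mean. The low arrays were replicate 3 of vehicle and replicates 3 and 4 of MPE, which lay in slide columns 3 and 4, while the others lay in columns 1 and 2. Median levels over the 74 genes were 7.56, 7.51 and 7.41 on the vehicle arrays and 7.51, 7.49, 7.33 and 7.43 on the MPE arrays. The share of all genes above their group mean stayed between 46.9% and 55.4% on every array, and that of the other genes of the brightest 10% ran from 29.6% to 76.4% with the same arrays low.

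**Figure D4:**
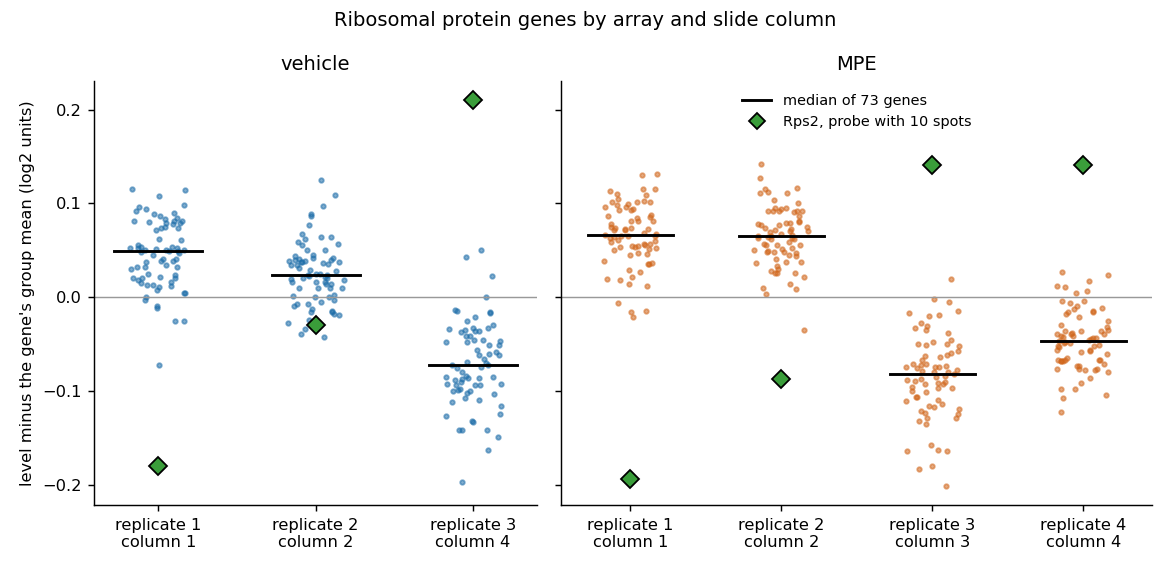
Level minus the gene's group mean (y axis, log2 units) on each array (x axis, by replicate and slide column) for 73 ribosomal protein genes as points, Rpl37 left out for its spread, with their median as a bar. Under the main scaling the bars lie above 0 in columns 1 and 2 and below 0 in columns 3 and 4. The green diamonds, the Rps2 probe spotted 10 times, run the other way.

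Of the 129 member probes tested, 123 were lower in columns 3 and 4 than in columns 1 and 2, averaged over both groups, with a median difference of -0.11. Among all tested probes 53.7% were lower. The clear exception was a probe of Rps2, a protein of the mRNA entry channel, spotted 10 times on each array. It read 5.79, 5.94 and 6.18 in vehicle and 5.82, 5.93, 6.16 and 6.16 with MPE, 0.30 higher in columns 3 and 4, with a spot-to-spot SD of 0.038 to 0.062 within an array. The next highest probe, of Rpl7, was 0.059 higher. The other Rps2 probe read 6.64, 6.71 and 6.59 in vehicle and 6.68, 6.62, 6.52 and 6.64 with MPE, and was not higher there. All these values are relative to the array's 75th percentile, and the shift by column was not computed under other scalings. The percentile subtracted was 8.34, 8.38 and 8.57 on the vehicle arrays and 8.53, 8.58, 8.71 and 8.53 on the MPE arrays.

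Each array also held a different sample, so slide position and sample cannot be told apart. Some islet hormone genes also lay high or low on these arrays. Of the 13 beta-cell markers, 11, 10 and 9 lay below their group mean on vehicle replicate 3, MPE replicate 3 and MPE replicate 4. Ins2, an insulin gene, stood at 10.58, 10.47 and 10.19 in vehicle and at 10.30, 10.26, 10.10 and 10.26 with MPE. Ppy, the pancreatic polypeptide gene, stood at 3.01, 2.30 and 1.41 in vehicle and at 2.93, 2.97, 1.28 and 1.52 with MPE. Sst, the somatostatin gene, stood at 3.66, 4.00 and 4.38 in vehicle and at 3.78, 3.72, 4.18 and 4.39 with MPE. Ppy was lowest and Sst highest on the arrays where ribosomal protein genes were low, in both groups. Ghrl, the ghrelin gene, stood highest on the same arrays, at -2.15, -2.28 and -1.91 in vehicle and at -2.30, -2.56, -1.92 and -1.86 with MPE. Gcg, the glucagon gene, did not follow, at 4.79, 4.92 and 4.81 in vehicle and at 4.79, 4.82, 4.78 and 4.95 with MPE. The part of these samples' makeup in the shift was not tested.

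The vehicle group has 1 of its 3 arrays in columns 3 and 4 and the MPE group 2 of its 4. Within columns 1 and 2 the median MPE minus vehicle difference of the 74 genes was -0.016, against -0.015 for all genes. Within columns 3 and 4 it was -0.033, against -0.016. With columns 1 and 2 against 3 and 4 as a block, which keeps all 7 arrays and was chosen after seeing the data, it was -0.024, against -0.014 for all genes, so the ribosomal protein genes lay -0.010 from all genes, compared with -0.028 without the block. With each slide column as a block it was -0.016, and the distance -0.0026. Column 3 holds only MPE replicate 3, so that block gives the values found without that array. Without vehicle replicate 3 the median was -0.085, and 2 of the 74 genes, Rpl10 (-0.20) and Rpl37 (-0.62), were lower at an unadjusted limma p under 0.05, against 4.41% of all genes. Their adjusted p was 0.890 and 0.885.

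Spot noise was smaller than the spread between arrays. For the 58 member probes spotted 10 times, the SD over spots of 1 array had a median of 0.040, and the SD between arrays of a group had a median of 0.074, larger in 55 of the 58 probes. The MPE minus vehicle median was -0.037 over spots in rows 1 to 192 of an array and -0.029 over spots in the other rows.

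The side of 0 on which these bright genes lay depended on the scaling. With each array's median as reference the members' median was -0.11 and that of all genes -0.086. With the 95th percentile they were -0.029 and -0.00019. Under quantile normalization, which gives every array one distribution, they were 0.012 and -0.015, and 49 of the 74 genes were higher. In the authors' table they were 0.012 and -0.017. Normexp background correction gave -0.024 and -0.016. All these values lie within 0.077, the SD of the members' median between arrays of a group, of the main value, and no member was called in any of them. That SD describes single arrays and measures neither the error of a difference between groups nor the effect of scaling.

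**Figure D5:**
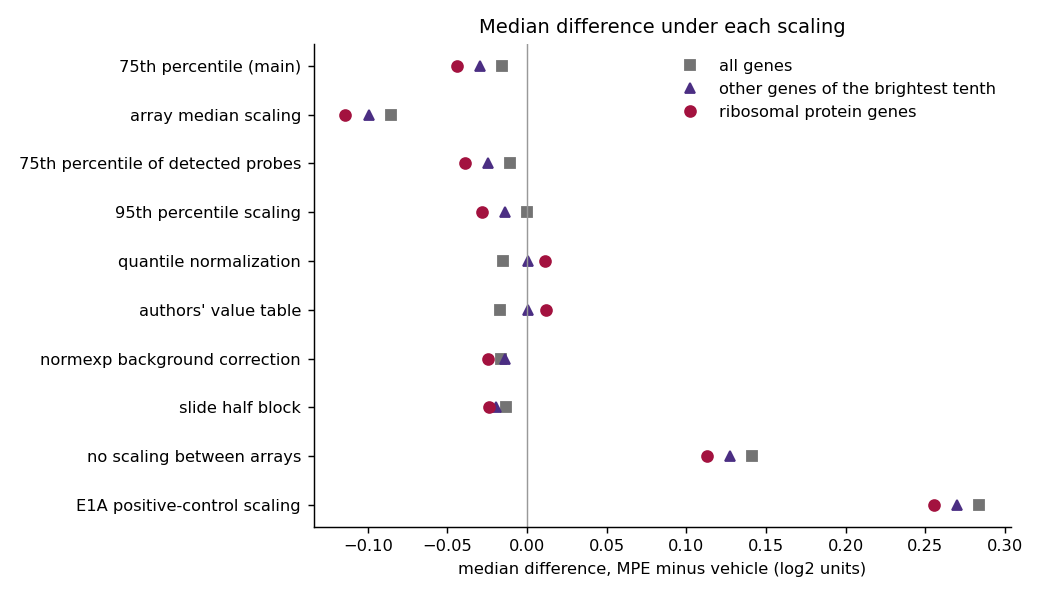
Median MPE minus vehicle difference (x axis, log2 units) of all genes (squares), other genes of the brightest 10% (triangles) and ribosomal protein genes (circles) under 10 ways of scaling or fitting the arrays (y axis). The circle lies at -0.028 from the square under each constant scaling, which holds by construction. It lies right of the square under quantile normalization and in the authors' table. All 3 move right without scaling and with the E1A controls.

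The 75th percentile itself had a mean of 8.43 ± 0.12 (SD, n = 3) in vehicle and 8.59 ± 0.086 (SD, n = 4) with MPE, in log2 intensity. The groups overlapped, with vehicle replicate 3 at 8.57 and MPE replicate 4 at 8.53. The E1A probes, positive controls present on every array, stood at 11.96 ± 0.057 and 11.82 ± 0.081. What sets their signal relative to that of the sample RNA was not tested. Each of the 7 E1A probes well above background on all arrays had a lower mean with MPE, by -0.18 to -0.11. These probes were read on the same arrays, so their agreement is not replication. The E1A mean overlapped between the groups, at 11.90 on vehicle replicate 3 and 11.91 on MPE replicate 2. Scaled to these controls, a setting chosen after seeing the data, all genes shifted to a median of 0.28 and the ribosomal protein genes to 0.26. Then 60 of the 74 were higher at an unadjusted p under 0.05, against 37% of all genes, and 0 were called, against 0.00907% of all genes, the smallest adjusted p being 0.134 by limma. Without scaling the medians were 0.14 and 0.11. Relative to the shift of all genes, the ribosomal protein genes lay -0.028 away in both, as under the main scaling. That distance is fixed by construction, because a constant per array moves all genes alike.

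Most ribosomal protein genes outside the naming rule were also lower under the main scaling. Of 11, 2 were higher, 9 lower and 0 passed the test, with a median of -0.042. Rack1, a small-subunit scaffold protein, had the smallest p of them, at 8.57 ± 0.071 in vehicle and 8.49 ± 0.060 with MPE. The stalk protein gene Rplp0 differed by -0.077 (SE 0.088), Rpsa by -0.058 (SE 0.071), and Fau, made as a fusion with a ubiquitin-like protein, by -0.026 (SE 0.088).

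Genes related by function but not part of the cytosolic ribosome held no gene that passed the test, adjusted or not. Of 15 translation factors with TOP mRNAs 3 were higher and 12 lower (median -0.017), and the smallest p belonged to Eef1d, an exchange factor subunit for elongation factor 1A, at -0.061 (SE 0.047). On vehicle replicate 3 and MPE replicates 3 and 4, 9, 12 and 15 of these 15 genes lay below their group mean. Of 74 mitochondrial ribosomal protein genes tested 32 were higher and 42 lower (median -0.0079), with Mrpl46 at -0.13 (SE 0.068). On the same arrays 49, 42 and 59 of the 74 lay below their group mean, against 71, 72 and 67 of the 74 cytosolic genes.

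Of 35 ribosome biogenesis genes 21 were higher and 14 lower (median 0.011), and 16, 11 and 20 lay below their group mean on those arrays. Ubtf, which binds the ribosomal RNA promoter, had the smallest p, at 6.02 in vehicle and 6.14 with MPE, a difference of 0.12 (SE 0.061). Of 11 regulators of ribosomal protein synthesis, among them Mtor, Larp1 and Myc, 6 were higher and 5 lower (median 0.022). The smallest p was that of Rps6kb2, an S6 kinase, at 0.084 (SE 0.058).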

How the data were processed

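The members and gene lists were chosen with earlier results of these data known. Per the labels' protocols, Cy3-labelled RNA was hybridized to Agilent mouse arrays of 1 colour. Deposited scanner files give the intensity of each spot, background-subtracted and detrended within its array by Agilent Feature Extraction, per the file headers (version 11.5.1.1; the submitters' processing notes name version 10.5.1.1). The deposited flags used say whether a spot is a control, an outlier or well above background. The authors' value table, an alternative here, holds log2 values whose columns all had a median of 4.438 and correlated at 0.9996 or more with their own array, with its tool not given in the sources used.

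Outlier-flagged spots (611 values) were left out, log2 processed intensities were averaged per probe and the 75th percentile of the array over non-control probes was subtracted. A probe had to have a value on all 7 arrays and be well above background on at least 3, with the majority of its spots above background counting as above. This left 28874 probes, and requiring complete values was chosen because it gave the probe count of an earlier analysis of these data. A gene was represented by its brightest probe (22060 genes). MPE and vehicle were compared with limma 3.58.1 in R 4.3.3 (lmFit, then eBayes), with Benjamini-Hochberg adjustment at 0.05 over all genes. Symbols came from the RefSeq gene table of GRCm38.p6, used for names. The number of arrays limits the precision.

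Members named were those called (none), the 5 per direction with the smallest p, the 4 brightest and 4 dimmest, those below background, paralogs and a set with known roles. From each other list the gene with the smallest p was named. Other members were named after their values were seen, namely Rps2, Rps12 and Rpl32l, as were Cel, Itgam, Gcg, Ghrl, Ins2, Ppy, Sst, Rplp0, Rpsa and Fau. Some listed genes are not reported here. Alternatives were other scalings, background corrections, filters, probe rules, variance models, blocks and each array left out. E1A scaling, the probe-wise fit, slide columns 1 and 2 against 3 and 4 as a block and leaving out Rpl37 were added after seeing the data. Normexp (offset 50) used the median intensity of a spot, where the mean had been planned. The fit was tested on simulated data.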

Additional observations from a re-analysis of the deposited data

How the results depend on the processing

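No ribosomal protein gene was called under any alternative except without the filter on dim probes, where 3 were (Rpl10l, Rpl39l and Rpl3l, none above background on any array) and 9968 genes were called in all. The count over all genes was 1, and became 2 without scaling and with E1A scaling, 3 with a trended robust variance and with each probe fitted on its own, and 0 with normexp, with the all-array filter, or with slide column blocked. Leaving out 1 array gave 0 (without vehicle replicate 1 or 3) to 4 (without MPE replicate 4), with 2 without vehicle replicate 2 and 3 without MPE replicate 1, 2 or 3. The members' median of -0.044 moved beyond its spread between arrays to 0.11 without scaling and 0.26 with E1A scaling, and ran from -0.085 (vehicle replicate 3 left out) to -0.016 (MPE replicate 3 left out) with 1 array left out. Without Rpl37 it was -0.044. Between arrays of the same replicate number the correlations of deviations were 0.25, 0.051 and 0.41. Vehicle replicates 1, 2 and 3 correlated best with MPE replicates 2, 1 and 3. These correlations do not settle whether replicate numbers pair the arrays. With the replicate number as a block, 0 genes were called and the members' median was -0.033.

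Of the 28 named members, 19 turned direction under some alternative, none of them called, and the cause was not tested. Under quantile normalization and in the authors' table these were Rps4x (0.00081 and 0.00058), Rps6 (0.0047 and 0.0034), Rpl36a (0.011 and 0.010), Rps3 (0.014 and 0.011), Rpl17 (0.011 and 0.012), Rpl41 (0.014 and 0.014), Rpl7 (0.026 and 0.025), Rpl22 (0.026 and 0.025), Rpl11 (0.026 and 0.026), Rpl37a (0.048 and 0.048), Rps27a (0.048 and 0.049), Rpl10 (0.050 and 0.050) and Rpl38 (0.057 and 0.057). Under median scaling they were Rpl21 (-0.028), Rpl23a (-0.039), Rps27l (-0.051), Rps27 (-0.054) and Rpl9 (-0.055). Rpl22 turned to 0.015 with the 95th percentile and 0.0040 with the detected-probe percentile. Normexp turned Rpl36a (0.0016), Rpl7 (0.013), Rpl22 (0.019), Rpl17 (0.020) and Rps27a (0.050). The mean over probes turned Rpl17 (0.00063) and Rpl7 (0.0029), the replicate block Rpl17 (0.0016) and Rpl22 (0.018), the column block Rpl22 (0.0044), Rpl5 (0.0045), Rps3 (0.020) and Rpl17 (0.039), and slide columns 1 and 2 against 3 and 4 as a block Rps3 (0.00052), Rpl22 (0.0095) and Rpl17 (0.015). With 1 array left out the ranges were -0.063 to 0.039 (Rpl17), -0.018 to 0.025 (Rpl22), -0.00029 to 0.057 (Rpl23a), -0.072 to 0.0045 (Rpl5), -0.053 to 0.0084 (Rpl7), -0.0031 to 0.042 (Rps27), -0.078 to 0.011 (Rps27a), -0.013 to 0.054 (Rps27l) and -0.076 to 0.020 (Rps3). Without scaling and with E1A scaling the named members were set against the shift of all genes. A constant per array moves all genes alike, so none could turn on that measure. As fitted, 73 of the 74 ribosomal protein genes were higher in both settings, against 8 under the main scaling.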
